A study of Mus musculus with 4 samples.

Results

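The nuclear genes of the mitochondrial respiratory chain were followed on Affymetrix mouse arrays of cultured bone marrow cells. Members were the genes whose symbol starts with Ndufa, Ndufb, Ndufc, Ndufs, Ndufv, Sdh, Uqcr, Cox4, Cox5, Cox6, Cox7, Cox8 or Atp5, with Cycs and Cyc1, on probe sets annotated to 1 symbol alone. The choice used names and no difference between arrays, and each gene was read on its probe set with the highest mean log2 value. It gave 89 genes on 164 probe sets, out of 12394 genes tested on an array of 22690 probe sets. By prefix, 34 genes belong to complex I, 4 to complex II, 9 to complex III, 16 to complex IV and 17 to complex V, Cycs is cytochrome c, and 8 Ndufaf and Sdhaf genes are assembly factors that help build complexes I and II.

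The Cre-GFP cells (Cre-GFP 1 and Cre-GFP 2) came from Mll-AF4stop knock-in mice and were infected with a Cre-GFP retrovirus, which should let the silent Mll-AF4 fusion be made. The control cells (control 1 and control 2) came from mice of the same knock-in genotype and received a GFP control virus per the sample labels, although the series' design text names that virus MIG-Cre. If the sample labels hold, an active fusion and Cre itself cannot be told apart, and if the design text holds, both viruses carried Cre. All 4 samples share 5-FU treatment of the mice 5 days before infection, sorting for GFP, 14 days of culture under lymphoid conditions and amplification of 20 ng of RNA. The labels name neither the age of the mice nor separate mice or cultures for the arrays of a group, so errors below rest only on the spread between these arrays. They are limma standard errors, moderated with the spread of all genes, and are not the spread of a gene's own arrays. Each group has 2 arrays, and values are log2 intensities unless a difference is named, with array 1 before array 2.

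The respiratory chain moves electrons from NADH (complex I) and succinate (complex II) over ubiquinone to complex III, over cytochrome c to complex IV and on to oxygen. Complexes I, III and IV pump protons across the inner mitochondrial membrane, and complex V, the ATP synthase, lets them flow back to make ATP. Most subunits are encoded in the nucleus, and many of their genes are known targets of the transcription factor NRF1 and of the Ets family factor GABP. Blood stem cells are known to rely less on respiration than their dividing, differentiating progeny.

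Promoter windows were searched because these genes are known for NRF1 and Ets sites. RefSeq (GRCm38.p6) windows, from 250 bases before to 50 bases after the gene start, matched 74 of the 89 genes. The NRF1 core CGCATGCG, which reads the same on both strands, lay in 11 of these 74 genes (14.9%), against 559 of all 27025 genes with a window (2.07%). The Ets motif CCGGAAGT, searched with its reverse complement ACTTCCGG, lay in 5 of the 74 (6.76%), against 4.31% of all genes. The median GC content was 59.0% in the members' windows and 52.7% in all windows, and its part in these shares was not tested. The window of Uqcr11, a small subunit of complex III, held both motifs without overlap. The 11 NRF1 core matches are shown with their surroundings to let them be compared, each read in the direction of its gene and with the core in capitals.
Atp5g2 (chr15:102671070-102671099, minus strand): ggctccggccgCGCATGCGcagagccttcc
Atp5j (chr16:84835105-84835134, minus strand): aggccagaataCGCATGCGtacagtgcagt
Atp5k (chr5:108434430-108434459, minus strand): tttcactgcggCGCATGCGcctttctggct
Atp5l (chr9:44920963-44920992, minus strand): aaccaataaCGCATGCGcatttcccccact
Cox6a1 (chr5:115349101-115349130, minus strand): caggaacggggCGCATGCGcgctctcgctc
Cycs (chr6:50566612-50566641, minus strand): ccatgctagctCGCATGCGcgcgcacaaac
Ndufa8 (chr2:36049329-36049358, minus strand): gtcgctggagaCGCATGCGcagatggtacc
Ndufaf4 (chr4:24897960-24897989, plus strand): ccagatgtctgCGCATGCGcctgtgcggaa
Ndufaf5 (chr2:140170652-140170681, plus strand): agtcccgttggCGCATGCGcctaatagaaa
Uqcr11 (chr10:80406808-80406837, minus strand): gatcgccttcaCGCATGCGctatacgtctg
Uqcrc1 (chr9:108936668-108936697, plus strand): actccgctctgCGCATGCGcagcgcggctc

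The cores of Uqcrc1 and Ndufaf5 lay after the gene start and the other 9 began before it. The 11 genes with a core had a median log2 difference of 0.0057 between Cre-GFP and control (from −0.18 to 0.27), and the other 63 genes with a window had one of −0.026. A match describes letters and says nothing about binding in these cells.

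The 250 bases before the start are shown for 3 genes whose values are given below. They are cytochrome c (Cycs), the complex IV subunit with the lowest difference between the groups (Cox7c) and the iron-sulfur subunit of complex III with a wide gap between replicates (Uqcrfs1). Capitals mark the NRF1 core, which of these 3 stretches the one of Cycs holds.
Cycs (chr6:50566570-50566819, minus strand): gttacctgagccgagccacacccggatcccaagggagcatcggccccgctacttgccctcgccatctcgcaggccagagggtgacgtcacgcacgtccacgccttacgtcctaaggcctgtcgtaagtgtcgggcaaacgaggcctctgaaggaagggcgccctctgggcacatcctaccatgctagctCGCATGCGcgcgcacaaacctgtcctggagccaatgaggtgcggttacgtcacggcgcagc
Cox7c (chr13:86046796-86047045, minus strand): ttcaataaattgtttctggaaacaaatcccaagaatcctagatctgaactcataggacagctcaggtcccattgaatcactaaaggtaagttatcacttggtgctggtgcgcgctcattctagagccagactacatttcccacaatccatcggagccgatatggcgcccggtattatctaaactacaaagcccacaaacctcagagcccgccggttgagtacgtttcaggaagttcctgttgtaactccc
Uqcrfs1 (chr13:30545317-30545566, minus strand): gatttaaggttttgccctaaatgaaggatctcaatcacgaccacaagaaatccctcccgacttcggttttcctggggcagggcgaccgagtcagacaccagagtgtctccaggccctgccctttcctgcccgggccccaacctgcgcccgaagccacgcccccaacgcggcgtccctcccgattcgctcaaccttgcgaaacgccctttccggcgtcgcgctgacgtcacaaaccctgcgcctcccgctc

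Between Cre-GFP and control 86 of the 89 genes (96.6%) differed by less than 0.32 on the log2 scale, as did 11215 of all 12394 genes (90.5%). Of the 89, 53 were lower in Cre-GFP and 36 higher, and the median difference was −0.026, against 0.0 over all genes, of which 49.9% were lower. In limma (two-sided, Benjamini-Hochberg over all genes) 0 members passed an adjusted p of 0.05, as did 0 of all genes (0.0%), and 1 member had an unadjusted p under 0.05, against 4.84% of all genes. Both Cre-GFP arrays lay above both control arrays for 9 members (10.1%, against 15.2% of all genes) and below them for 13 (14.6%, against 14.9% of all genes), so neither count stood above the background. The 95% confidence interval of 67 members lay within 1.5-fold in both directions, and that of the other 22 reached past it. The median was −0.099 without control 1 and 0.035 without Cre-GFP 1.

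**Figure D1:**
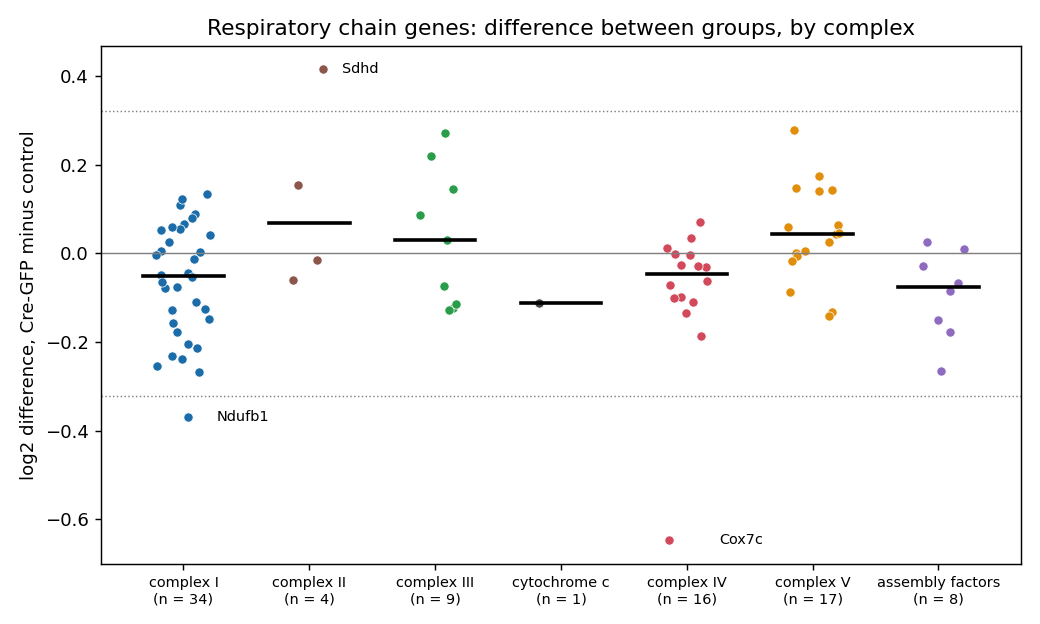
Log2 difference (Cre-GFP minus control, 2 arrays each) of each of the 89 genes by complex, with a point per gene, a black line at each median and dotted lines at 0.32 either way. Only Sdhd, Ndufb1 and Cox7c lie outside the dotted lines, and the medians lie between −0.11 for the single cytochrome c gene and 0.069 for complex II.

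Marker lists of 4 cell types describe the cells beside this result. B lineage markers were lower in Cre-GFP for 13 of 15 genes, with summed intensities of 39300.1 and 39184.8 on the Cre-GFP arrays, against 47327.0 and 51635.6 on the control arrays. Monocyte and macrophage markers were higher for 11 of 15, with sums of 6855.9 and 4972.9 in Cre-GFP against 2449.2 and 4507.5 in control, while Itgam and C1qb read under the 20th percentile. Neutrophil and granule markers (8 of 14 higher) summed to 4045.9 and 4727.7 in Cre-GFP against 1910.9 and 5609.0 in control. Erythroid markers (7 of 10 lower) summed to 1924.0 and 2212.0 in Cre-GFP against 2611.1 and 3384.1 in control, with Slc4a1 under the 20th percentile. Their part in any difference below was not tested, and in bulk RNA fewer cells of a type and less RNA per cell cannot be told apart.

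Complex I, which oxidizes NADH, had a median log2 difference of −0.051, with 21 of 34 genes lower in Cre-GFP. Single arrays set that sign, since leaving out Cre-GFP 2 gave −0.16 and leaving out control 1 gave −0.15, while leaving out Cre-GFP 1 gave 0.033 and leaving out control 2 gave 0.020. The 6 measured core subunits, which together hold the flavin and the iron-sulfur clusters, had a median of 0.065, and the 28 accessory subunits one of −0.059. Without overlap, 3 of the 34 lay above both controls (15.2% of all genes did) and 4 below (14.9% of all genes). Of the 10 Ndufb genes, which build the membrane arm, 8 were lower, with a median of −0.091. Ndufb1, an accessory subunit of that arm, read 8.28 and 8.57 in Cre-GFP, against 8.70 and 8.89 in control. It differed by −0.37 ± 0.19 (SE), with both Cre-GFP arrays below both controls (unadjusted p = 0.0952 in limma).

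Ndufa4, named as a complex I gene and now counted as a subunit of complex IV, read 10.90 and 10.996 in Cre-GFP, against 11.21 and 11.16 in control. Its difference was −0.24 ± 0.15, with no overlap between the groups. Ndufa8, an accessory subunit with many cysteines, also stood below both controls, at 11.21 and 11.26 in Cre-GFP, against 11.37 and 11.45 in control. Ndufs4, an accessory subunit whose loss causes complex I deficiency, read 8.26 and 8.60 in Cre-GFP, against 8.49 and 8.91 in control, and the groups overlapped. In the other direction, the core subunits Ndufv2 and Ndufs3 and the small Ndufv3 lay above both controls, with differences of 0.079, 0.12 and 0.13. Ndufv3 did so by a narrow margin, at 10.984 on Cre-GFP 2 against 10.982 on control 2. The core subunit Ndufs8 lay below both controls, with a difference of −0.075, and these 4 genes were named after their values were seen. The Ndufs8 margin was narrow too, with 12.652 on Cre-GFP 1 against 12.653 on control 1. Ndufa1 and Ndufa13 differed by 0.0043 ± 0.14 and −0.045 ± 0.14.

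Complex II, succinate dehydrogenase, links the chain to the tricarboxylic acid cycle, and 2 of its 4 genes were higher in Cre-GFP. Its catalytic subunits Sdha, the flavoprotein, and Sdhb, the iron-sulfur protein, were close to level across the arrays. Sdhb read 11.72 and 11.72 in Cre-GFP, against 11.73 and 11.75 in control, and Sdha read 10.29 and 10.22 in Cre-GFP, against 10.29 and 10.34 in control. Of the membrane anchors, Sdhc read 8.79 and 8.70 in Cre-GFP, against 8.66 and 8.52 in control, a difference of 0.15 ± 0.17 without overlap. A second, dimmer Sdhc probe set differed by −0.018. Sdhd read 8.49 and 8.62 in Cre-GFP, against 7.65 and 8.62 in control, a difference of 0.41 ± 0.32. The Sdhd value on control 1 stood apart from the other 3 arrays, the difference was −0.071 without that array, and a second Sdhd probe set differed by 0.094. The median of the 4 genes (0.069) was −0.048 without control 1.

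Complex III passes electrons to cytochrome c, and its 9 genes had a median of 0.030 with 5 higher. That median ran from −0.021 to 0.026 with each array dropped in turn. Uqcrc1, a core protein of the matrix side, read 10.13 and 9.98 in Cre-GFP, against 9.71 and 9.85 in control. It was 1.21-fold higher (0.27 ± 0.17), with both Cre-GFP arrays above both controls, and its difference ran from 0.20 to 0.35 with each array dropped in turn. Its partner Uqcrc2 differed by −0.12 ± 0.14 and changed sign without Cre-GFP 1 (0.026). Uqcr11 stood above both controls, at 11.18 and 11.03 in Cre-GFP, against 10.96 and 10.96 in control. The hinge protein Uqcrh stood below them, at 8.84 and 8.75 in Cre-GFP, against 8.97 and 8.88 in control. Cyc1, the heme subunit cytochrome c1, differed by 0.030 ± 0.12, Uqcrb, a small subunit near the ubiquinone site, by −0.074 ± 0.11, and Uqcr10 by 0.086 ± 0.17. Uqcrfs1, the Rieske iron-sulfur protein, differed by 0.22 ± 0.29, less than the gap between its replicates.

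Cycs, the mobile carrier to complex IV and a trigger of apoptosis once in the cytosol, read 12.88 and 13.09 in Cre-GFP, against 13.20 and 12.99 in control. The groups overlapped, with a difference of −0.11 ± 0.14, and 2 further probe sets differed by 0.076 and 0.0006.

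Complex IV, cytochrome c oxidase, had 13 of 16 genes lower in Cre-GFP and a median of −0.047, which ran from −0.088 to −0.031 with each array dropped in turn. Of the 16, 5 stood below both controls (14.9% of all genes did) and 0 above (15.2% of all genes). These 5 were 3 of the 10 widely expressed subunits and 2 of the 6 tissue-restricted isoforms, which were read without detection calls. Of the widely expressed subunits 8 were lower, and of the isoforms 5. Without the dimmest 40% of genes the complex IV median was −0.0285. Cox7c, a small membrane subunit, had the lowest difference of the 89 genes, at 7.51 and 7.97 in Cre-GFP, against 8.21 and 8.56 in control. It was 1.57-fold lower (−0.65 ± 0.23, unadjusted p = 0.0283, adjusted p = 0.887 in limma), with no overlap. Dropping Cre-GFP 1 gave −0.42 and dropping Cre-GFP 2 gave −0.88, while dropping control 1 gave −0.82 and dropping control 2 gave −0.47. The Cox7c probe set used has a suffix that marks sequence which several transcripts may share. Its other probe set, without such a suffix, read 3.26 at the lowest and 3.5 at the highest. That set differed by −0.12, and the mean of both sets gave −0.39.

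The other widely expressed complex IV subunits differed far less. Cox7a2 read 13.50 and 13.51 in Cre-GFP, against 13.60 and 13.63 in control, without overlap and with a difference of −0.11. Cox6a1 read 14.13 and 14.16 in Cre-GFP, against 14.17 and 14.18 in control, also without overlap and with a difference of −0.029. Cox5a differed by −0.13 ± 0.12, Cox6b1 by −0.063 ± 0.11, Cox4i1 by −0.030 ± 0.14, Cox6c by −0.0048 ± 0.18 and Cox8a by 0.070 ± 0.17. Cox7a2l, which joins complexes III and IV into supercomplexes, differed by −0.072 ± 0.15.

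Isoforms known from other tissues were read too, without detection calls to say whether they were above background. The heart and muscle forms Cox6a2, Cox7a1 and Cox8b differed by −0.0017, −0.026 and −0.19. Cox8b alone of these 3 stood below both controls, at 5.75 and 5.55 in Cre-GFP, against 5.84 and 5.83 in control. Cox4i2, the lung form, differed by −0.099 ± 0.11 without overlap, and the testis forms Cox6b2 and Cox8c by −0.10 and 0.035. The Cox6b2 difference was −0.022 once values under each array's 20th percentile were raised to it.

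Complex V had 11 of 17 genes higher in Cre-GFP and a median of 0.044, which ran from −0.033 to 0.098 with each array dropped in turn. Without overlap, 3 of the 17 lay above both controls (15.2% of all genes did) and 1 below (14.9% of all genes). In the catalytic head and central stalk 4 of 5 genes were higher, and Atp5c1, the gamma subunit of the central stalk, stood below both controls with a difference of −0.13 ± 0.14, named after its values were seen. A second, dimmer Atp5c1 probe set differed by 0.19. Atp5d, the delta subunit of the central stalk, read 13.07 and 12.65 in Cre-GFP, against 12.71 and 12.46 in control. It differed by 0.28 ± 0.18 with overlap. Dropping Cre-GFP 1 left 0.068, dropping Cre-GFP 2 gave 0.49, and a second probe set gave 0.40. Atp5b, the catalytic beta subunit, read 11.31 and 11.42 in Cre-GFP, against 11.17 and 11.27 in control, a difference of 0.15 ± 0.15 without overlap. All 3 genes of the rotating c-ring were higher, with differences of 0.14 for Atp5g1, 0.17 for Atp5g2 and 0.047 for Atp5g3, each with overlap. Atp5o, a peripheral stalk subunit, stood above both controls, at 11.59 and 11.71 in Cre-GFP, against 11.47 and 11.54 in control. A second Atp5o probe set differed by −0.087, and the mean of both sets by 0.027. Atp5k and Atp5md, small membrane subunits, differed by 0.0057 and −0.0002.

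Of the 8 assembly factors with a member prefix, 6 were lower in Cre-GFP, with a median of −0.076 that was −0.26 without control 1 and 0.062 without control 2. Sdhaf2, which helps attach the flavin to Sdha, read 8.55 and 8.57 in Cre-GFP, against 8.62 and 9.02 in control, a difference of −0.27 ± 0.20 without overlap. Without control 2 the Sdhaf2 difference was −0.064, and without control 1 it was −0.47. The other 7 differed by −0.18 (Sdhaf4) to 0.026 (Ndufaf1).

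**Figure D2:**
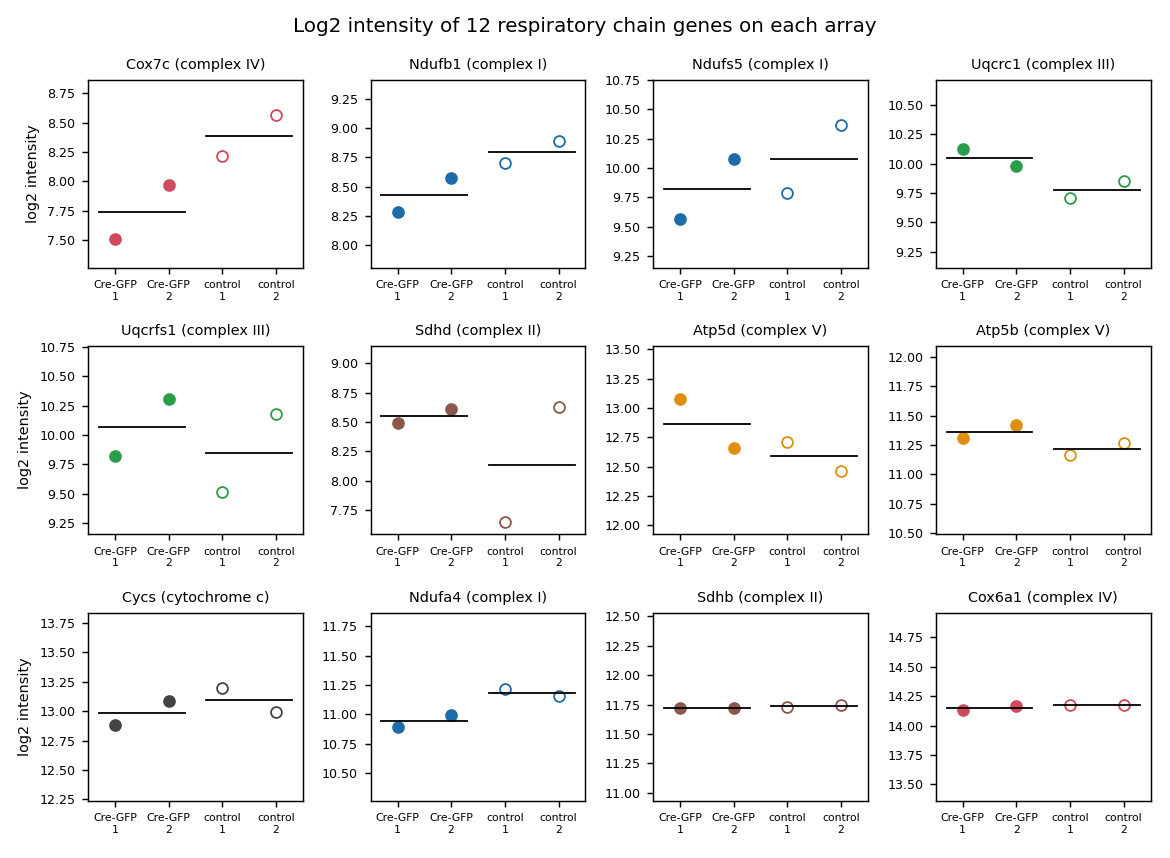
Log2 intensity of 12 genes on each array, with filled points for Cre-GFP 1 and 2, open points for control 1 and 2 and a line at each group's mean, on axes of equal span. Cox7c, Ndufb1 and Ndufa4 are lower on both Cre-GFP arrays, Uqcrc1 and Atp5b higher, Sdhd is low on control 1 alone, and Ndufs5 and Uqcrfs1 are low on array 1 of both groups.

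Replicate 1 against replicate 2 gave a wider median shift of the members than Cre-GFP against control, but the measures are unlike. The first sets 1 array against 1 and the second 2 against 2, where a shift shared by array 1 of both groups cancels. Without control 1 the median between the groups was −0.099. In Cre-GFP, 64 of 89 members were lower on array 1, with a median log2 difference (1 minus 2) of −0.11, while the median of all genes was 0.053. In control, 65 of 89 were lower on array 1, with a median of −0.10, while that of all genes was 0.017. Replicate 1 lay below replicate 2 in both groups for 53 members (59.6%), against 24.4% of all genes. Among genes with a mean log2 value of 10 or more, a bound set after the data were seen, it did so for 37 of 62 members (59.7%) and for 511 of all 1289 such genes (39.6%). Medians of these 62 members were −0.105 in Cre-GFP and −0.098 in control, and those of the 1289 genes −0.090 and −0.028. These are single arrays without a test, and the 2 within-group differences had a Pearson r of 0.42 across the 89 genes and 0.35 across all genes, which share the same 4 arrays and are not independent. The labels give both groups the numbers 1 and 2 without saying what a number marks.

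The size of this shift depended on the scaling. With quantile normalization repeated on the deposited values, the medians were −0.036 in Cre-GFP and −0.057 in control, and 44 members (49.4%) lay lower on array 1 in both groups, against 25.4% of all genes. With arrays set to equal medians they were −0.15 in Cre-GFP and −0.096 in control, and 55 members (61.8%) did so, against 27.1% of all genes. In Cre-GFP 19 members were lower on array 1 by more than 0.32 (10.6% of all genes) and 1 was higher by as much (9.79% of all genes). In control 14 were lower by more than 0.32 (11.7% of all genes) and 0 higher (9.33% of all genes). Genes with a mean log2 value of 10 or more gave another picture. In Cre-GFP 9 of 62 such members were lower by more than 0.32 and 1 higher, against 267 and 123 of all 1289 such genes. In control 4 of the 62 were lower and 0 higher, against 219 and 141 of the 1289. The share of lower members was thus below that of all such genes in both groups.

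**Figure D3:**
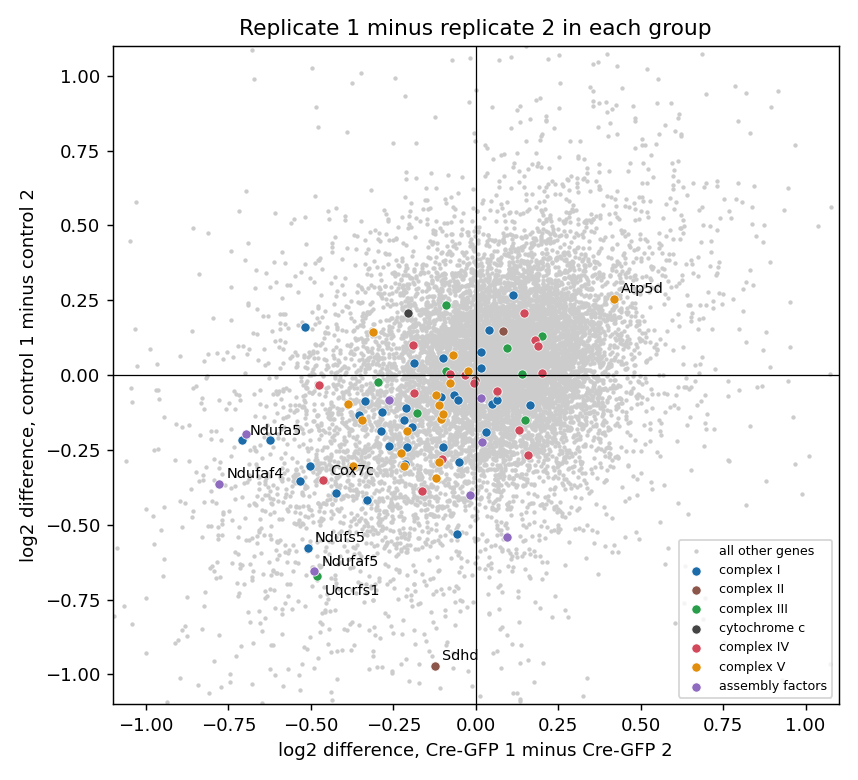
Log2 difference of replicate 1 minus replicate 2 in Cre-GFP (x axis) and in control (y axis), with members coloured by complex over all other genes in grey, of which those beyond the axes are not drawn. Of the 89 members, 53 are negative on both axes and 13 positive on both, where Atp5d is the farthest.

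By complex, the shared direction was most frequent in complexes V and I. It held for 13 of 17 complex V genes (76.5%), 23 of 34 complex I genes (67.6%) and 5 of 8 assembly factors. The counts were 7 of 16 for complex IV (43.8%), 2 of 4 for complex II and 3 of 9 for complex III. The share was 24.4% of all genes and 39.6% of all genes with a mean log2 value of 10 or more. In complex IV it held for 6 of the 10 widely expressed subunits and for 1 of the 6 tissue-restricted isoforms. In complex I the medians were −0.20 in Cre-GFP and −0.14 in control. The 6 core subunits had medians of 0.027 in Cre-GFP and −0.025 in control, and the 28 accessory subunits of −0.21 and −0.19, with 21 of the 28 lower on array 1 in both groups. The complex V peripheral stalk, which holds the catalytic head still, had all 4 measured genes lower on array 1 in both groups. A second Atp5o probe set had gaps of −0.38 in Cre-GFP and 0.20 in control, while those of Atp5h and Atp5pb kept the direction.

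Ndufs5, an accessory subunit, read 9.57 and 10.08 in Cre-GFP, against 9.79 and 10.37 in control. Both array 1 values lay below both array 2 values, with gaps of −0.51 in Cre-GFP and −0.58 in control, while the groups differed by −0.25 ± 0.27. Uqcrfs1 read 9.82 and 10.31 in Cre-GFP, against 9.51 and 10.18 in control, with gaps of −0.48 in Cre-GFP and −0.67 in control. Ndufa9, an accessory subunit near the ubiquinone site, had gaps of −0.42 in Cre-GFP and −0.39 in control. For Cox7c the gaps were −0.46 in Cre-GFP and −0.35 in control, and for Cox6c, a small subunit of complex IV, −0.16 in Cre-GFP and −0.39 in control. The complex I assembly factors Ndufaf4 and Ndufaf5 were lower on array 1 too, with gaps for Ndufaf4 of −0.78 in Cre-GFP and −0.36 in control and for Ndufaf5 of −0.49 in Cre-GFP and −0.66 in control. Atp5md had gaps of −0.37 in Cre-GFP and −0.30 in control.

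In both groups 13 of 89 members (14.6%) were higher on array 1, against 36.8% of all genes. Atp5d had gaps of 0.42 in Cre-GFP and 0.25 in control, although those of its second probe set were 0.27 in Cre-GFP and −0.11 in control. Uqcr10 had gaps of 0.20 in Cre-GFP and 0.13 in control, and Sdhc of 0.084 in Cre-GFP and 0.15 in control. Another Uqcr10 probe set had gaps of −0.092 in Cre-GFP and −0.31 in control, and a further one of 0.12 in both groups. The other Sdhc probe set went the opposite way, with gaps of −0.15 in Cre-GFP and −0.42 in control. Sdhd was lower on array 1 in both groups, with unequal gaps of −0.12 in Cre-GFP and −0.97 in control.

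Values of RNA quality moved with the replicate number. The log2 gap between the 3′ and 5′ control probe sets of Actb was 3.36 on Cre-GFP 1 and 3.04 on Cre-GFP 2, and 3.60 on control 1 and 2.81 on control 2. The gap between its 3′ and middle probe sets was 1.87 and 1.73 in Cre-GFP, against 1.84 and 1.56 in control. The gap between the 3′ and middle probe sets of Gapdh was 2.14 and 1.80 in Cre-GFP, against 2.70 and 1.83 in control. These 3 gaps were wider on array 1 in both groups, while the 3′ to 5′ gap of Gapdh was 3.99 and 4.32 in Cre-GFP, against 4.32 and 4.24 in control. Median differences of the B lineage markers between replicates had opposite signs, at 0.20 in Cre-GFP and −0.27 in control. The part of RNA quality or cell makeup in the shift of the members was not tested.

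Genes around the chain were read on 5 further lists, and 0 of their genes passed an adjusted p of 0.05 in limma. Assembly factors of other names and chaperones had 14 of 28 genes higher in Cre-GFP and a median of 0.013, suppliers of electrons 10 of 17 (0.041), the tricarboxylic acid cycle 12 of 22 (0.015), transport and coupling 10 of 14 (0.030), and transcription and genome maintenance 13 of 20 (0.041). Coa5, an assembly factor of complex IV, read 8.53 and 8.49 in Cre-GFP, against 7.90 and 8.04 in control. Its difference was 0.54 ± 0.16 (unadjusted p = 0.0143, adjusted p = 0.764 in limma), and −0.0010 without probe sets whose suffix marks sequence shared by several transcripts. Lrpprc, which stabilizes mitochondrial messenger RNA, read 6.45 and 6.81 in Cre-GFP, against 6.05 and 6.36 in control, without overlap.

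Of the regulators, Pprc1, a coactivator of the PGC-1 family, read 8.79 and 8.60 in Cre-GFP, against 8.40 and 8.12 in control. Its difference was 0.44 ± 0.18, without overlap. Ppargc1a, which encodes the PGC-1alpha coactivator of mitochondrial genes, read 4.19 and 4.32 in Cre-GFP, against 4.65 and 4.49 in control. Its difference of −0.31 ± 0.11 (unadjusted p = 0.0251, adjusted p = 0.844 in limma) was −0.0036 once values under each array's 20th percentile were raised to it.

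Slc25a4, a carrier that exchanges ADP for ATP, read 10.999 and 11.48 in Cre-GFP, against 11.80 and 11.58 in control, a difference of −0.45 ± 0.21, or −0.074 without shared-suffix probe sets. Slc25a13, the aspartate and glutamate carrier, differed by 0.42 ± 0.20. Coq5 and Coq8a, both of ubiquinone synthesis, differed by 0.36 and 0.29, and the cycle enzymes Idh3g and Suclg1 by 0.27 and 0.28.

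Different probe sets of a gene did not always go the same way. Of the 89 genes, 47 had more than 1 probe set, and 20 of their 75 other probe sets had a difference of the opposite sign between Cre-GFP and control. Over all 164 probe sets, 90 were lower on array 1 in both groups.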

How the data were processed

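Linear intensity values of each probe set were made by the authors with RMA, which normally equalizes arrays, per the submitters' processing notes; its version and settings are not given in the sources used here. Values were put on the log2 scale without further normalization and no pseudocount. Median intensities were 85.1 to 87.7 on the 4 arrays. The number of arrays limits the precision, and RMA understates folds of dim genes. The platform annotation named 20393 probe sets by 1 symbol. Groups were compared over all 12394 genes with limma 3.58.1 in R 4.3.3 (lmFit, eBayes with an intensity trend, two-sided, Benjamini-Hochberg, threshold 0.05), tested on simulated data. Positive differences mean higher in Cre-GFP. Complexes, related lists and replicates were described by counts and medians. Probe set suffixes _s_at, _x_at and _a_at mark sequences that several transcripts may share.

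Named genes were, per complex, the 2 of highest mean, the 4 of smallest unadjusted p and the 2 with the widest replicate difference shared by both groups, with all Sdh genes, Cycs, Cyc1, Ndufa4 and fixed complex IV isoforms, and 2 genes per related list. Members and lists were chosen with earlier results of these data known. Alternatives covered scaling, the replicate number as a block, dim values, probe set choice, the variance model, membership and each array left out. Scan dates and detection calls were not used here.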

Additional observations from a re-analysis of the deposited data

Results flagged for a closer look

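A probe set outside the members was higher in Cre-GFP. Some genes of the related lists, such as Coa5 and Pprc1, were higher too, and others, such as Slc25a4, lower. The probe set is shared by Ndufs6, an accessory subunit of complex I, and Ndufs6b, and was left out because it is annotated to 2 genes. It read 11.04 and 11.08 in Cre-GFP, against 10.89 and 10.91 in control, which differs by 0.16 on the log2 scale, with both Cre-GFP arrays above both controls. It was the only one of 8 such probe sets to do so, while 15.2% of all genes did.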

How the results depend on the processing

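In limma 0 members passed the adjusted threshold under each of the 12 alternative fits, which include each single array left out. The replicate block left this count at 0 and the median at −0.026 and changed no call. The correlation of the 2 within-group differences was 0.35 over all genes, and with 2 pairs it does not settle whether the numbers pair the samples. Counts of genes without overlap were not recomputed with single arrays left out, since 2 arrays against 1 count something else. The block and the fit without an intensity trend cannot move a median. Of 112 other alternative values of the counts and medians, 104 moved by less than the replicate spread or by less than 1.5 times. The exceptions were complex II with the mean of a gene's probe sets (0.026) and without shared-suffix probe sets (−0.016), the median replicate difference in control without shared-suffix probe sets (−0.19), and medians with single arrays left out. Those ran from −0.16 to 0.033 for complex I, from −0.048 to 0.090 for complex II and from −0.26 to 0.062 for the assembly factors; the cause was not tested. The assembly factors and chaperones of other names ran from −0.072 to 0.15. That count is a weak check, since the replicate spread was wider than the median itself for all members (0.087 against −0.026). So it was for complexes I, III, IV and V and for the assembly factors (0.16 against −0.076). A median could thus change sign and count as unmoved. With single arrays left out this held for all members (−0.099 to 0.035), complex III (−0.021 to 0.026) and complex V (−0.033 to 0.098).

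Some differences changed sign, among them values far from 0 such as those of Coa5, Sdhd, Ndufs5 and Uqcrfs1. With equal array medians Ndufa1 was −0.0009. With quantile normalization repeated Ndufa1 was −0.019, Sdhb 0.012, Cox6c 0.013 and Atp5md 0.016. With the mean of its probe sets Ndufaf4 was 0.042, and without shared-suffix probe sets Cycs was 0.0006, Cox5a 0.029 and Coa5 −0.0010. With single arrays left out, 35 of the 89 members kept their sign. Of the 60 genes named by the rule 32 did, but 23 of these moved by over 1.5 times without some array, and the ranges of the members named by the rule that changed it follow. In complex I they were −0.14 to 0.15 for Ndufa1, −0.17 to 0.075 for Ndufa13, −0.15 to 0.28 for Ndufa9 and −0.54 to 0.035 for Ndufs5. In complex II they were −0.071 to 0.90 for Sdhd. In complex III they were −0.015 to 0.074 for Cyc1, −0.015 to 0.19 for Uqcr10, −0.16 to 0.015 for Uqcrb, −0.27 to 0.026 for Uqcrc2 and −0.12 to 0.55 for Uqcrfs1. In complex IV they were −0.17 to 0.11 for Cox4i1, −0.091 to 0.088 for Cox6a2, −0.16 to 0.029 for Cox6b1, −0.20 to 0.0029 for Cox6b2, −0.20 to 0.19 for Cox6c, −0.26 to 0.21 for Cox7a1, −0.21 to 0.061 for Cox7a2l, −0.022 to 0.16 for Cox8a and −0.059 to 0.13 for Cox8c. In complex V they were −0.083 to 0.18 for Atp5g3, −0.033 to 0.045 for Atp5k and −0.19 to 0.19 for Atp5md. For assembly factors they were −0.42 to 0.12 for Ndufaf3, −0.46 to 0.32 for Ndufaf4, −0.32 to 0.34 for Ndufaf5, −0.22 to 0.046 for Ndufaf7, −0.066 to 0.0099 for Sdhaf1 and −0.53 to 0.17 for Sdhaf4.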
